A study of Rattus norvegicus with 98 samples.

Results

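The medial preoptic area (MPOA) was compared with the bed nucleus of the stria terminalis (BNST) on the H3K27ac peak lists of 7 libraries, 3 from MPOA and 4 from BNST, out of 94 libraries with a peak list from 25 brain regions. The members were chosen by their region label alone. H3K27ac is acetylated lysine on histone H3, and chromatin immunoprecipitation followed by sequencing (ChIP-seq) locates it along the genome. All tissue came from male Long-Evans rats, and the labels give an age of 2 months. By the paper this is about the age at assignment to the groups. The animals were therefore older when killed after the 6 weeks of treatment. The fluoxetine group (FT) received fluoxetine, a selective serotonin reuptake inhibitor, at 18 mg/kg each day in its drinking water over 6 weeks, and the control group (Sham) drank plain water. MPOA was represented by Sham replicates 1 and 2 and FT replicate 1, and BNST by Sham replicates 1 and 2 and FT replicates 1 and 2. Each library was made from frozen punches pooled over several animals, so a library is a pool and not an animal. Libraries of one treatment and replicate number were taken as coming from the same pool, which makes 4 pools behind the 7 libraries. The sources used here name no transgene or deletion.

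Acetylation of this lysine marks promoters and enhancers that are in use, and enhancers carry much of the difference between one brain region and the next. MPOA lies at the front of the hypothalamus and is known for its part in male sexual behaviour, parental care, body temperature and sleep. BNST lies just above it, belongs to the telencephalon as part of the extended amygdala, and is known for sustained anxiety-like states and for passing signals from the amygdala to the hypothalamus. The 2 areas are connected in both directions, and both differ between the sexes. A punch holds neurons, glia, vessels and fibres, so fewer cells of a type and less acetylation per cell cannot be told apart. The labelled tissue could not be checked against marker genes because no gene annotation of the Rn5 build was used here, and loci are therefore given by position without gene names.

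The lists differed in length before any cut. Sham MPOA 1 held 33940 peaks, Sham MPOA 2 held 20491 and FT MPOA 1 held 49980. Sham BNST 1 held 38333 peaks, Sham BNST 2 held 26942, FT BNST 1 held 48814 and FT BNST 2 held 46580. In both regions Sham replicate 2 was the shortest list, and the ranges of the regions overlapped. Read depth is unknown, because the lists hold no read counts. Each list was therefore cut to its 20491 best peaks by maxScore, the highest score of the peak caller's filter within a peak, which keeps all of Sham MPOA 2 and 41.0% of FT MPOA 1. The cut fell at a maxScore of 43.4 in Sham MPOA 2 and of 52.6 to 132 in the other 6 libraries.

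Sham MPOA 2 stood apart from the other 6 libraries. Its highest maxScore was 475, against 687 to 1441 elsewhere, and 5 of its peaks reached the upper limit of the deposited −log10 p-value, against 319 to 2901 elsewhere. Similarity was measured by the Jaccard index, which divides the 1 kb windows shared by a pair of libraries by all windows found in at least 1 of the pair, a window being occupied when peaks cover at least 50% of it. Sham MPOA 2 reached 0.471 with Sham MPOA 1, 0.413 with FT MPOA 1 and 0.388 to 0.440 with the 4 BNST libraries. Its part in the main results was measured by leaving it out, and those values stand beside these results. Further descriptions of region-only windows and of elements are on all 7 libraries unless stated.

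On equal-length lists MPOA peaks were not distinguishably narrower than BNST peaks. The median peak width was 1800 bp in Sham MPOA 1, 1200 bp in Sham MPOA 2 and 2100 bp in FT MPOA 1. In BNST it was 1900 bp in Sham 1, 1700 bp in Sham 2, 2200 bp in FT 1 and 2100 bp in FT 2. The groups overlapped, and within each treatment and replicate number the MPOA library was the narrower, with differences of -100 bp in Sham 1, -500 bp in Sham 2 and -100 bp in FT 1. The mean was 1700 ± 458 bp (SD, n = 3) in MPOA and 1975 ± 222 bp (SD, n = 4) in BNST, a difference of -275 bp (exact permutation test over 35 arrangements of the libraries, two-sided, p = 0.457). With 3 libraries against 4 this test, which doubles the smaller tail, cannot go below 0.0571. Without Sham MPOA 2 the difference was -25 bp (exact permutation test, p = 1).

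Other measures of breadth gave the same picture. The 20491 peaks covered 36.7, 26.5 and 44.5 Mb in Sham MPOA 1, Sham MPOA 2 and FT MPOA 1, and 41.0, 35.1, 45.4 and 43.5 Mb in Sham BNST 1, Sham BNST 2, FT BNST 1 and FT BNST 2. The difference of the means was -5.37 Mb (exact permutation test, two-sided, p = 0.457), and -0.666 Mb without Sham MPOA 2. Broad peaks of 3 kb or more numbered 276, 53 and 724 in the MPOA libraries and 598, 362, 937 and 748 in the BNST libraries, in the same order. They were fewer in MPOA in 3 of 3 pairs, with differences of -322, -309 and -213 peaks, and the groups still overlapped (exact permutation test, two-sided, p = 0.229). The number of peaks in the full lists differed by -5364 (exact permutation test, two-sided, p = 0.571), and by 1793 in favour of MPOA without Sham MPOA 2.

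**Figure D1:**
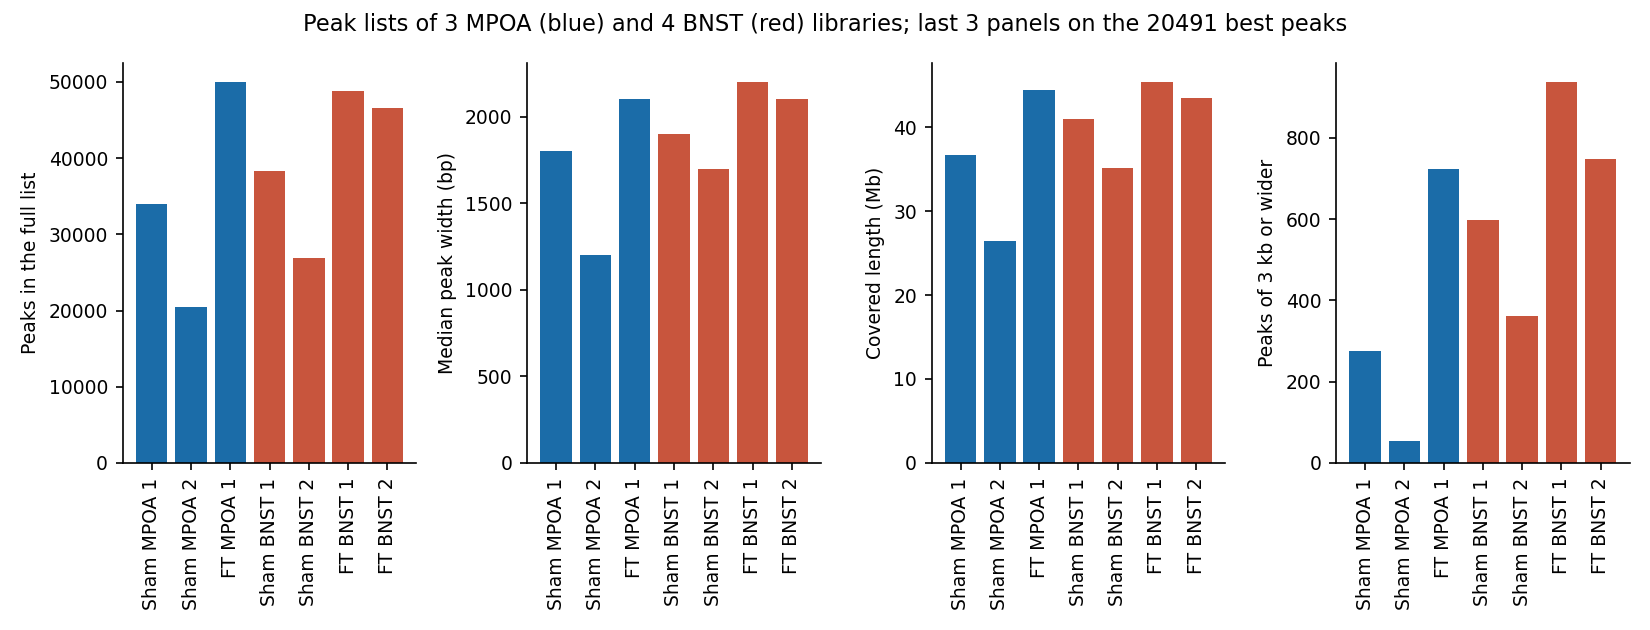
Bars give, for each of the 3 MPOA (blue) and 4 BNST (red) libraries, the number of peaks in the full list and, on the 20491 best peaks, the median peak width in bp, the covered length in Mb and the number of peaks of 3 kb or more. Sham MPOA 2 is the lowest library in every panel, with a median width of 1200 bp and 53 broad peaks.

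Libraries of BNST resembled each other more than they resembled MPOA. The Jaccard index was 0.692 ± 0.068 (SD over 6 pairs) within BNST, 0.516 ± 0.132 (SD over 3 pairs) within MPOA and 0.528 ± 0.097 (SD over 12 pairs) between the regions. The MPOA pair without Sham MPOA 2, Sham 1 with FT 1, reached 0.664, and the 8 pairs between regions without it gave 0.588 ± 0.047. These pairs share libraries and pools and are a description with no test. Over all 93 other libraries, 6 of the 7 had their highest index with a library of their own region. The exception was FT MPOA 1, which was nearest to FT VMH 2, a library of the ventromedial hypothalamus, at 0.683. Outside its own region Sham MPOA 1 and Sham MPOA 2 were likewise nearest to VMH libraries, at 0.632 and 0.462. The 4 BNST libraries each had a different nearest outside region, namely LH (lateral hypothalamus, 0.682) for Sham 1, VTA (ventral tegmental area, 0.608) for Sham 2, NaCcore (core of the nucleus accumbens, 0.711) for FT 1 and MS (medial septum, 0.700) for FT 2.

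**Figure D2:**
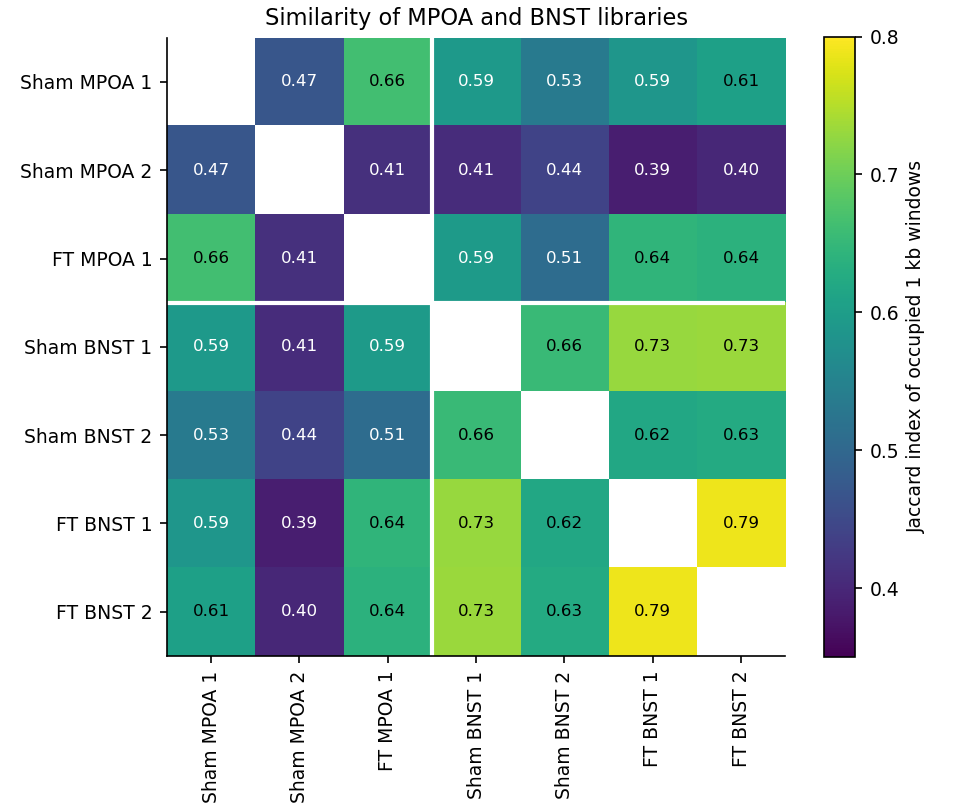
Colours and numbers give the Jaccard index of occupied 1 kb windows for each pair of the 7 libraries on lists of 20491 peaks, with white lines between the regions. The 6 pairs within BNST lie between 0.620 and 0.788, and every pair with Sham MPOA 2 lies at 0.471 or below.

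Averaged over libraries, MPOA and BNST differed in which regions they resembled. Without Sham MPOA 2, the mean index of MPOA was 0.637 ± 0.034 with VMH (SD over 8 pairs), 0.618 ± 0.024 with BLA (basolateral amygdala), 0.604 ± 0.044 with VTA and 0.601 ± 0.034 with arc (arcuate nucleus, 6 pairs). BNST had 0.637 ± 0.042 with VTA (SD over 16 pairs), 0.635 ± 0.060 with LH, 0.627 ± 0.052 with NaCcore and 0.618 ± 0.036 with Snt (nucleus of the solitary tract). The values at the top of each order differ by less than their spread. For arc the mean was 0.601 with MPOA and 0.482 with BNST, and for NaCcore it was 0.545 with MPOA and 0.627 with BNST. The BNST means kept Sham BNST 2, the shortest BNST list. With Sham MPOA 2 included, the MPOA mean was 0.525 ± 0.117 for arc (SD over 9 pairs) and 0.496 ± 0.078 for NaCcore (SD over 12 pairs).

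Windows that separated the regions completely were then counted. The 7 cut lists occupied 68024 windows of 1 kb in at least 1 library, and 16559 of these (24.3%) in all 7. Windows occupied in every MPOA and no BNST library numbered 509, which is 0.748% of the 68024. Windows occupied in every BNST and no MPOA library numbered 2335, or 3.43%. Single windows were not tested, and the 2 counts ask for a different number of occupied libraries. Adjoining windows joined into 467 MPOA-only loci of at most 2 windows and 1760 BNST-only loci of at most 3 windows.

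The 4.59-fold excess of BNST-only over MPOA-only windows depended on Sham MPOA 2. Another 1615 windows met the MPOA-only rule in every library but that of Sham MPOA 2, against 262 that failed only in Sham MPOA 1 and 209 that failed only in FT MPOA 1. Without it there were 2124 MPOA-only and 2570 BNST-only windows on lists of 20491 peaks, and 2338 and 2518 when the 6 lists were cut to 26942 peaks, the shortest of the 6. Of those 2338 MPOA-only windows 149 were among the 509 found with all 7 libraries. Of the 2518 BNST-only windows 1366 were among the 2335. The MPOA-only windows were thus largely other windows. Without FT MPOA 1 the BNST-only windows rose from 2335 to 4164, because 1829 windows were occupied in all BNST libraries and, of the MPOA libraries, in FT MPOA 1 alone. Without Sham MPOA 1 there were 771 and 3012 windows, and leaving out any BNST library gave 581 to 612 MPOA-only and 2595 to 3393 BNST-only windows.

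Within treatments the order of the counts differed. Among Sham libraries, 2 against 2, there were 1262 MPOA-only and 5580 BNST-only windows. Among FT libraries, 1 against 2, there were 7573 MPOA-only and 6561 BNST-only windows, and a side with 1 library has fewer conditions to meet. Whether the regions differ in another way under fluoxetine was not tested.

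**Figure D3:**
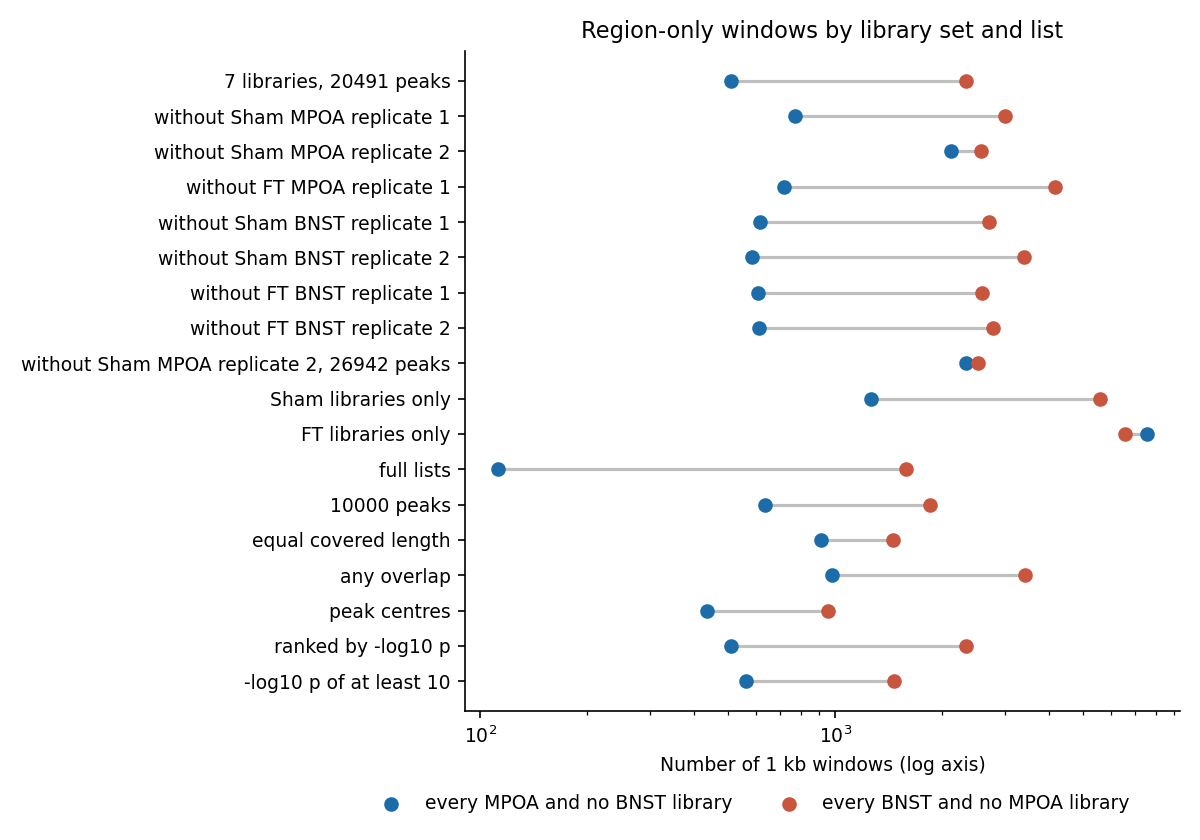
Points give the number of 1 kb windows, on a log axis, that every MPOA and no BNST library occupies (blue) and that every BNST and no MPOA library occupies (red), for 18 choices of libraries and lists. BNST-only windows are the more numerous in 17 of them, and the counts draw close at 2338 and 2518 when Sham MPOA 2 is left out and the lists hold 26942 peaks.

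Region-only windows came from peaks of modest rank. A window was given the mean rank, over the libraries of its region, of the best peak over it, where rank 1 is the highest maxScore. The median was 14199 for MPOA-only and 12953 for BNST-only windows, against 5164 for windows occupied in all 7 libraries. Only 3 MPOA-only windows (0.589%) had a mean rank within the best 5000, against 171 BNST-only windows (7.32%). In the full lists, 92.3% of MPOA-only windows were occupied in at least 1 BNST library, and 69.9% of BNST-only windows in at least 1 MPOA library. They are thus mostly differences in rank and extent, and 10 MPOA-only and 109 BNST-only windows touched no peak of the other region in any full list. BNST-only windows adjoined a window shared by all 7 libraries more often, 9.47% against 1.18% of MPOA-only windows.

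The longest MPOA-only loci spanned 2 windows, and 42 had this length. The 5 named here are those with the best mean rank in MPOA. At chr13:100789001-100791000 the best peak ranked 9003, 5052 and 9639 in Sham MPOA 1, Sham MPOA 2 and FT MPOA 1. In the full BNST lists a peak was also present there, at rank 27488 in Sham 1, 22556 in Sham 2, 27056 in FT 1 and 35896 in FT 2. All 3 MPOA ranks were thus better than all 4 BNST ranks. The rule itself favours such a gap, because the lists are cut by rank. A peak within the cut that is too narrow, or that lies mostly outside a window, can also leave the window empty. Among the 23 other regions this locus was occupied in every library of 8, which included VMH, arc, CMA (centromedial amygdala), PAG (periaqueductal grey) and LC (locus coeruleus), and in none of 6, which included NaCcore and LS (lateral septum).

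The MPOA-only locus at chr13:104062001-104064000 ranked 7704, 10196 and 10368 in the MPOA libraries. Neither Sham BNST library had a peak there in its full list, while FT BNST 1 had 1 at rank 25613 and FT BNST 2 at rank 25308. It was occupied in every library of 10 other regions. These were CGC (cingulate cortex), InsularCortex, LC, MDT (dorsomedial thalamus), PAG, PVN (paraventricular nucleus), Raphe, Snt, VMH and arc. PVN was not counted as hypothalamic here. No library of BLA, LS, MS, NaCcore or dorDG (dorsal dentate gyrus) occupied it. The remaining MPOA-only loci named by length were chr16:68830001-68832000, chr7:23742001-23744000 and chr20:29794001-29796000, occupied in 38, 76 and 59 of the 87 other libraries. The locus on chromosome 7 was occupied in every library of 17 other regions. All 4 full BNST lists also held a peak there, at ranks 20887, 23373, 25218 and 21048, of which the first and the last lie just past the cut at 20491.

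The longest BNST-only loci spanned 3 windows, and 13 had this length. The 5 named here are those with the best mean rank in BNST. At chr5:142423001-142426000 the best peak ranked 4970, 6266, 5997 and 5617 in Sham BNST 1, Sham BNST 2, FT BNST 1 and FT BNST 2. In MPOA the best peak touching the locus ranked 12391 with a width of 2000 bp in Sham 1. In FT 1 it ranked 24329 with a width of 4100 bp, and Sham MPOA 2 had no peak. The Sham 1 peak lay within the cut but mostly outside the locus, whose windows it left unoccupied. Outside BNST this locus was occupied in every library of Raphe, Snt and VTA and in no library of 16 regions. At chr10:75794001-75797000 the ranks were 7163, 5651, 9292 and 9265 in BNST. In MPOA they were 14371 in Sham 1 and 21929 in FT 1, and Sham 2 again had no peak. The Sham 1 peak of 1300 bp lay within the cut but mostly outside the locus, and it left the windows of the locus unoccupied. Snt was the other region that occupied this locus in all its libraries.

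The other BNST-only loci named by length lay at chr6:135787001-135790000, chr2:58144001-58147000 and chrX:32169001-32172000. On chromosome 6 all 3 MPOA libraries had a peak, at ranks 15093, 12848 and 21888 and widths of 1100, 800 and 2500 bp. The BNST peaks ranked 10662, 7540, 9476 and 9787 and were 3100 to 4200 bp wide. A peak thus touched this locus in every library of both regions, and that of FT MPOA 1 lay past the cut. The Sham MPOA 1 peak lay within the cut but mostly outside the locus, whose windows it left unoccupied. Whether the MPOA and BNST peaks belong to the same element was not tested. The locus on chromosome 2 was the rarest of the 10 named, occupied in 12 of the 87 other libraries and in all libraries of no other region. On the X chromosome FT MPOA 1 alone among the MPOA libraries had a peak, at rank 20896, and 7 other regions occupied the locus in every library.

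Libraries of the other 23 regions did not take part in choosing the windows, so their occupancy was measured on lists of the same length (2 of the 87 lists were shorter and were kept whole). Few region-only windows were empty in all other regions. Of the MPOA-only windows 5 were occupied in no other library, and of the BNST-only windows 6. The median MPOA-only window was occupied in 31 of the 87 libraries and the median BNST-only window in 28, whereas windows of all 7 libraries were occupied in a median of 84.

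BNST-only windows fell into regions in a graded order. They were occupied most in Snt, at 81.8 ± 1.82% (SD, n = 4 libraries), then in LH at 74.1 ± 14.3%, Raphe at 70.9 ± 8.58%, VTA at 68.8 ± 6.04% and NaCcore at 67.9 ± 14.2%. Neighbours in this order differed by less than the larger of their SDs, and 1 LH library, at 85.7%, lay above every Snt library. In each of these 5 regions the lowest share of BNST-only windows in any library lay above the highest share of MPOA-only windows. MS had 53.0 ± 12.5%, MDT (dorsomedial thalamus) 51.5 ± 2.30%, LS 46.4 ± 7.55% and BLA 37.8 ± 2.22%. The lowest BNST-only share also lay above the highest MPOA-only share in MDT (49.3% against 43.8%) and narrowly in BLA (35.5% against 35.2%). In MS and LS it did not. At the lower end stood CMA with 8.62 ± 0.488%, CGC (cingulate cortex) with 7.16 ± 1.06%, InsularCortex with 5.61 ± 0.752%, arc with 5.23 ± 0.844% (SD, n = 3), PAG with 5.18 ± 0.421% and PLC (prelimbic cortex) with 4.51 ± 1.94%. With windows chosen without Sham MPOA 2, on lists of 26942 peaks, the mean was 83.1% in Snt, 74.9% in LH and 73.9% in Raphe. It was 70.0% in VTA, 68.3% in NaCcore and 7.27% in arc.

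MPOA-only windows were occupied most in arc, at 65.8 ± 5.09% (SD, n = 3 libraries), where the range was 61.9% to 71.5%. CGC followed with 54.4 ± 3.14% (SD, n = 4), InsularCortex with 51.2 ± 1.26%, VMH with 50.8 ± 2.85% and CMA with 50.5 ± 6.22%, and the last 3 of these differed by less than their spread. NaCcore held the fewest at 10.2 ± 2.24%, from 7.66% to 12.4%. PAG held 24.5 ± 1.72%. With MPOA-only windows chosen without Sham MPOA 2, on lists of 26942 peaks, the mean was 61.6% in arc and 47.9% in CGC. It was 46.7% in InsularCortex, 46.2% in CMA, 41.4% in VMH and 8.28% in NaCcore. Windows shared by all 7 libraries were occupied at 95.3% in Snt, 96.7% in NaCcore, 91.8% in arc and 76.6% in PAG. In HB (habenula) the only Sham library differed from all others as a whole. It occupied 0.169% of the windows shared by all 7 libraries, 0.393% of the MPOA-only and 0.0857% of the BNST-only windows, so no region mean is read for HB, and its FT library occupied 57.0% and 35.8% of the region-only windows.

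**Figure D4:**
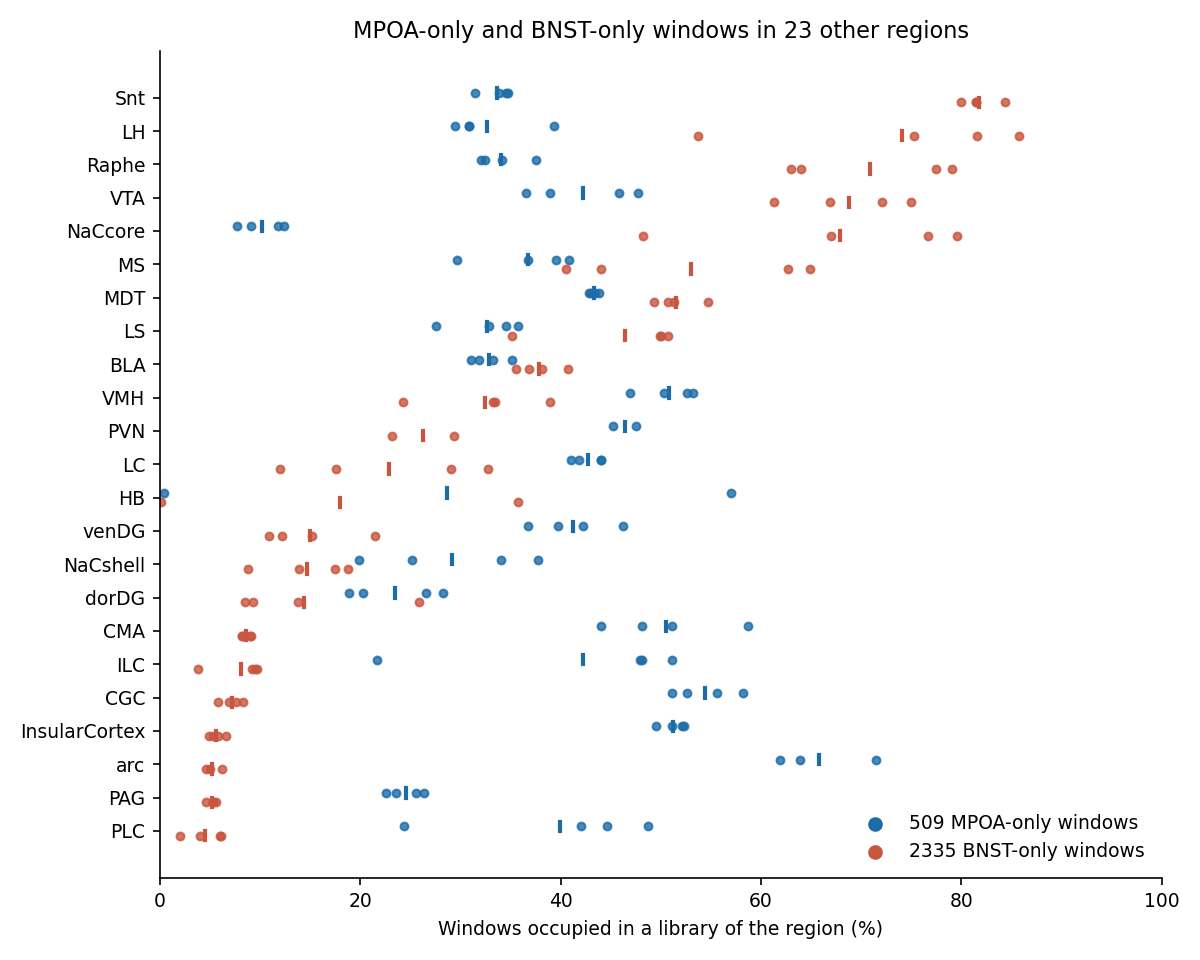
Each point is a library of 1 of 23 other regions and gives the percent of the 509 MPOA-only (blue) and of the 2335 BNST-only windows (red) that it occupies, with bars at the region means. Snt, LH, Raphe, VTA and NaCcore hold more of the BNST-only windows, and arc holds 65.8% of the MPOA-only and 5.23% of the BNST-only windows.

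Whether the windows follow the division into hypothalamus and subpallial telencephalon was tested over regions. The measure was the percent of MPOA-only minus the percent of BNST-only windows occupied, averaged over the libraries of a region. It was 60.5 in arc, 18.3 in VMH and -41.4 in LH. Among the subpallial regions it was 41.9 in CMA, 14.5 in NaCshell (shell of the nucleus accumbens), -13.8 in LS, -16.3 in MS and -57.7 in NaCcore. The groups overlapped over almost their whole range, with means of 12.5 ± 51.2 percentage points (SD, n = 3 regions) and -6.29 ± 37.2 (SD, n = 5 regions), a difference of 18.8 (exact permutation test over 56 arrangements, two-sided, p = 0.607, where 0.0357 is the smallest possible). Without arc the difference was -5.26, and without LH it was 45.7 (exact permutation test, p = 0.190). It was 19.7 when Sham MPOA 2 was left out of the choice of windows. PVN was in neither group. With PVN among the hypothalamic regions the difference was 20.7 (exact permutation test, two-sided, p = 0.492).

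Rank was then compared within elements present in both regions. Joining the bases covered in at least 2 of the 7 cut lists gave 25138 elements with a median width of 2067 bp, and 11464 of them held a peak centre in all 7 lists. Ranks were turned into normal scores. A difference of 1 is 1 standard deviation of these scores over a cut list, and not a fixed number of ranks. A positive difference means a better rank in MPOA. By limma with region and treatment as terms and Benjamini-Hochberg adjustment at 0.05, 2084 elements ranked higher in MPOA (18.2%) and 2312 higher in BNST (20.2%). The median difference was 0.65 among the first and -0.77 among the second, and 0.12 over all elements tested.

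The size of these counts changed with the libraries and the lists. Without FT MPOA 1 there were 703 and 973 elements, and without any other single library 1021 to 1933 higher in MPOA and 1455 to 2907 higher in BNST. With Sham libraries alone, 2 against 2, limma called 0 of 11880 elements, with 3484 at an unadjusted p under 0.05. On full lists 296 elements ranked higher in MPOA and 1323 in BNST, so MPOA took 18.3% of the calls instead of 47.4%. With elements present in at least 3 lists, where missing peaks take the last rank, MPOA took 33.0%, and in the 6 libraries without Sham MPOA 2 it took 37.2%. With the median of each list set to the same value the counts were 1917 and 2417.

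Calls occurred over the whole range of ranks, and those higher in BNST were less frequent at the worse ranks. Among the 2866 elements with the best mean ranks, 20.97% ranked higher in MPOA and 26.5% higher in BNST. Among the 2866 with the worst mean ranks the shares were 17.9% and 11.7%. Elements ranked higher in BNST contained a BNST-only window in 135 of 2312 cases (5.84%), against 253 of all 11464 elements (2.21%). The same lists chose both, so this is a description. Elements ranked higher in MPOA contained an MPOA-only window in 3 of 2084 cases (0.144%), against 9 of all 11464 elements (0.0785%), and a BNST-only window in 10 cases (0.480%).

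**Figure D5:**
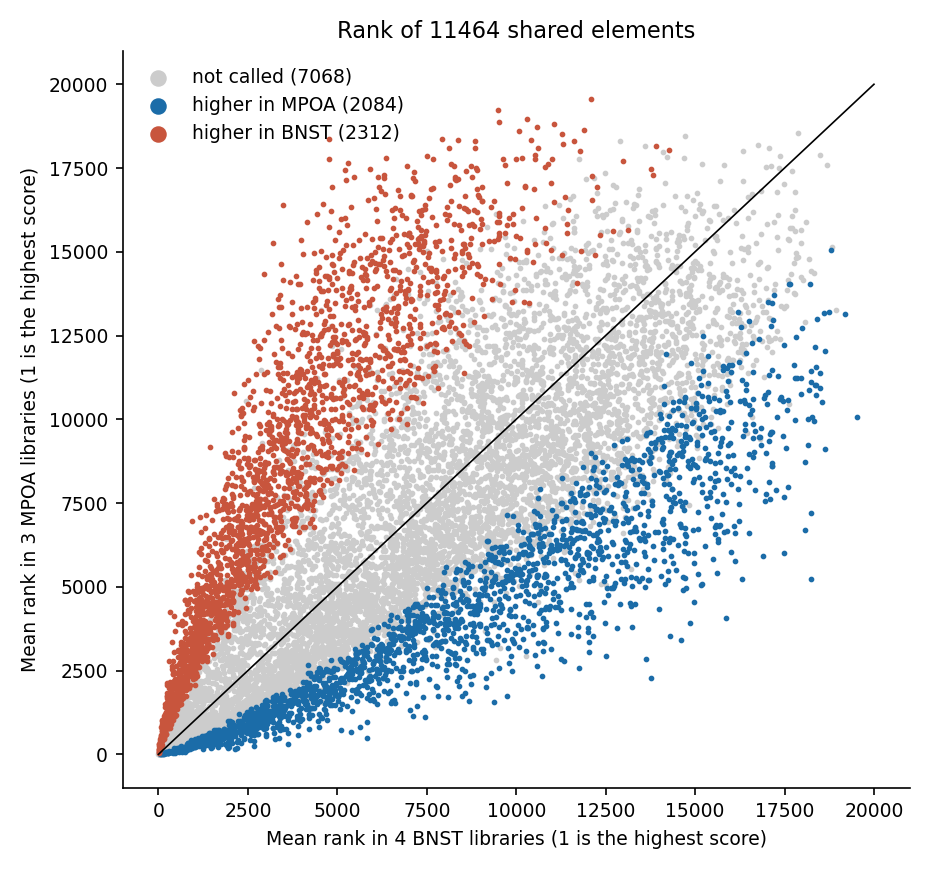
Each point is 1 of 11464 shared elements, with its mean rank in the 4 BNST libraries on the horizontal axis and in the 3 MPOA libraries on the vertical axis, where 1 is the highest score. The 2084 elements called higher in MPOA (blue) lie below the line of equal ranks and the 2312 called higher in BNST (red) lie above it.

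The 5 elements with the lowest p in each direction had limma adjusted p-values of 0.00532 by the Benjamini-Hochberg method, shared by all 10. At chr16:19256231-19258666 the best peak ranked 510, 376 and 554 in Sham MPOA 1, Sham MPOA 2 and FT MPOA 1. In Sham BNST 1, Sham BNST 2, FT BNST 1 and FT BNST 2 it ranked 6314, 5476, 7026 and 4548. The ranges were far apart, a difference of 1.42 ± 0.15 normal-score units (SE), although the peak covered a mean of 2279 bp in MPOA and 2225 bp in BNST. In other regions it ranked best in CGC, PLC and InsularCortex, at mean ranks of 162, 251 and 287.

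At chr5:121758274-121760476 the ranks were 7795, 3767 and 4106 in MPOA and 17144, 17062, 15589 and 15442 in BNST, a difference of 1.56 ± 0.17 (SE). This element was the least common of the 5 that ranked higher in MPOA, with a peak in 31 of the 87 other libraries. Its best mean rank among other regions was 5035 in arc, followed by 11818 in VMH. The element at chr5:154975686-154977976 ranked 943, 821 and 394 in MPOA and 5564, 7090, 4199 and 3580 in BNST, and it too ranked best in arc, at 875. So did the element at chr5:131853977-131856169, with 2233, 1647 and 1347 in MPOA, 8333 to 12375 in BNST and 1550 in arc. The last, at chr10:55708016-55711939, ranked 7962 to 9985 in MPOA and 17197 to 19378 in BNST, and on full lists its adjusted p by limma was 0.0695.

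Among elements that ranked higher in BNST, the lowest p belonged to chr16:32573967-32575971. The best peak there ranked 5401, 4101, 5815 and 5640 in Sham BNST 1, Sham BNST 2, FT BNST 1 and FT BNST 2, and 17531, 16190 and 17697 in the MPOA libraries. The difference was -1.68 ± 0.14 (SE), and the covered length moved with it, at a mean of 1942 bp in BNST and 1300 bp in MPOA. Its best ranks in other regions were in LH (6256), MS (6376) and NaCcore (7592). At chr10:104033340-104035502 the ranks were 3735, 3513, 5174 and 4154 in BNST and 14417, 16572 and 16652 in MPOA, a difference of -1.63 ± 0.14 (SE). NaCcore ranked it best among other regions, at 5587, then Snt at 6122, and no PAG library had it among its best 20491 peaks.

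The remaining 3 lay at chr14:23128108-23130207, chr16:71815002-71817001 and chrX:67413802-67415824. In that order their BNST ranks lay between 4097 and 8247, between 6092 and 9658 and between 4957 and 10548. Their MPOA ranks lay between 14947 and 17808, between 17574 and 17966 and between 14843 and 19340, with no overlap of the regions at any of them. VTA ranked the element of chromosome 14 best, LH that of chromosome 16 and NaCcore that of chromosome X. On full lists the element at chr16:71815002-71817001 had an adjusted p of 0.0564 by limma. With Sham libraries alone the adjusted p of all 10 was 0.103 by limma.

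Over all called elements, the other regions fell into much the same order as for the windows, on a measure that the 7 lists do not contain. The median rank of the elements higher in BNST and of those higher in MPOA was taken in each library, with an absent peak set just past the end of the list. In Snt the medians were 2972 and 7995, in LH 3291 and 6963, in Raphe 3690 and 6918, in NaCcore 3744 and 6681, and in VTA 3664 and 6435. All libraries of these 5 regions ranked the BNST-higher elements better, as did all libraries of MS and MDT. In arc the medians were 15314 for the elements higher in BNST and 2929 for those higher in MPOA, in PLC 16092 and 3247, and in InsularCortex 14190 and 3250. PAG had 20087 and 5133. In LS the medians were 5266 and 5240, and the difference between them changed sign among its 4 libraries. These libraries share pools with the 7 and were set side by side without a test.

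The width of shared elements differed little. Of 11471 elements covered in all 7 lists, limma on log2 of the covered bases, adjusted by the Benjamini-Hochberg method, called 0 wider in MPOA (0%) and 1 wider in BNST (0.00872%), with 3 and 1158 at an unadjusted p under 0.05. The median difference over all elements was -0.13 on the log2 scale, and -0.02 without Sham MPOA 2. Without that library 77 elements were wider in MPOA and 1779 wider in BNST at an unadjusted p under 0.05 by limma. Every MPOA library was narrower than every BNST library at 1209 elements (10.5%), and wider at 1 (0.00872%).

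The called element lay at chr5:157025968-157030869. Peaks covered 2200, 2100 and 2384 bp of it in Sham MPOA 1, Sham MPOA 2 and FT MPOA 1, and 4700, 4600, 4700 and 4787 bp in Sham BNST 1, Sham BNST 2, FT BNST 1 and FT BNST 2. The difference was -1.07 ± 0.08 on the log2 scale (SE, limma adjusted p = 0.0473), so that BNST peaks spanned a stretch that MPOA peaks left uncovered. Its rank was 853, 337 and 389 in MPOA and 823, 1666, 954 and 642 in BNST, among the better ranks of both. The adjusted p by limma was 0.354 with the replicate block, which compares libraries of the same pool, and 0.0819 without Sham MPOA 1, 0.221 without FT MPOA 1 and 0.544 to 0.777 without any BNST library, while the difference stayed between -1.11 and -1.04.

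The next elements by p for width were not called. At chr7:117200402-117204902 peaks covered 1900, 1600 and 2265 bp in MPOA and 3801, 3200, 4400 and 4200 bp in BNST (limma adjusted p = 0.204). At chr3:158524883-158529037 they covered 1770, 1400 and 2200 bp in MPOA and 3400, 3100, 4036 and 4100 bp in BNST (limma adjusted p = 0.204). In the other direction the lowest p belonged to chr1:206995106-206997809, covered over 2500, 2300 and 2614 bp in MPOA and over 2000, 1500, 2300 and 2151 bp in BNST (limma adjusted p = 0.487). Next came chr1:228136806-228141958, which was covered over 5000, 5149 and 5014 bp in MPOA and over 4200, 4200, 4600 and 4500 bp in BNST (limma adjusted p = 0.487). The last of these is the 1 element of all tested at which every MPOA library was wider than every BNST library.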

How the data were processed

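H3K27ac ChIP-seq libraries were aligned by the authors to the Rn5 rat genome (the submitters' notes name BWA, version not given in the sources used here), and peaks were called with DFilter in each library separately. The deposited lists give, per peak, maxScore and a normalised tag count (scores that depend on the library), a −log10 p-value from 4 to 200 by the authors, and a false discovery rate as a percent, which was not used. Input libraries were not analysed here. Depth is unknown, so no counting interval was computed and the number of libraries limits precision. A longer list, deeper sequencing and better enrichment cannot be told apart.

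Scores ranked peaks within a list only. Lists were cut to 20491 peaks, windows of 1 kb needed 50% coverage, starts were read as counting from 0, and positions are printed counting from 1. The study tested read counts per peak, which the lists do not hold. Rank and width of shared elements were therefore fitted with limma 3.58.1 (R 4.3.3), with treatment as a covariate. One value per library was compared by exact permutation, computed with numpy 2.4.6. Normal scores and the correlations across regions came from scipy 1.17.1. Steps were tested on simulated data. The loci named are the 5 longest per direction, ties broken by mean rank, and the elements named are the 5 with the lowest p per direction. Regions, lists and tests were chosen with earlier results of these data known.

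That libraries of one treatment and replicate number share a pool of animals is implied by the study's methods, not stated. Deviations from the region means correlated at 0.148 (Sham 1), 0.248 (Sham 2) and 0.181 (FT 1) between same-numbered libraries, and at -0.22 to 0.159 between the others (0.159 for FT MPOA 1 with FT BNST 2). Each of the 3 lay above 0.1, but so did FT BNST 2 with FT MPOA 1 and with Sham MPOA 1 (0.133). These correlations therefore cannot show that pools were shared. The numbers were taken to pair the libraries as an assumption, without FT BNST 2. The p-values bear on these libraries. Alternatives were other list lengths, window rules, score orders, library subsets and the replicate block. No Rn5 annotation or genome was used here, so no genes or sequences are given.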

Additional observations from a re-analysis of the deposited data

Results flagged for a closer look

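Of 65 groups of 4 or more libraries examined, 4 held a library far from the others, and chance alone gives about 1 in 20 groups. Sham ILC 2, a library of the infralimbic cortex with 19378 peaks, occupied 21.6% of the MPOA-only windows, against 47.9% to 51.1% in the other 3 ILC libraries. The same library occupied 3.81% of the BNST-only windows, against 9.17% to 9.68%. Sham LS 2, with 26223 peaks, occupied 35.1% of the BNST-only windows, against 49.9% to 50.7% in the other 3 LS libraries. Sham LH 1 occupied 39.3% of the MPOA-only windows, against 29.5% to 30.8% in the other 3 LH libraries. No BNST library was set apart on peak number, width, covered length or the elements named.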

How the results depend on the processing

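As MPOA-only and BNST-only windows, full lists gave 112 and 1584, equal covered length 909 and 1452, 5 kb windows 1 and 132, any overlap 978 and 3434, peak centres 436 and 954, a −log10 p of at least 10 gave 559 and 1466, Sham libraries alone 1262 and 5580, and, chosen after the data were seen, FT libraries alone 7573 and 6561 and the 6 libraries without Sham MPOA 2 on 26942 peaks 2338 and 2518. Lists of 10000 peaks gave 634 and 1852. Leaving out a library gave 581 to 2124 and 2570 to 4164. Ranking by −log10 p gave 509 and 2335 again.

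Elements higher in rank in MPOA and BNST numbered 296 and 1323 on full lists, 1321 and 2679 with elements in at least 3 lists, 0 and 0 with Sham libraries alone, 2083 and 3512 in the 6 libraries, and 703 to 1933 and 973 to 2907 without a library. For width, 0 were wider in BNST with the replicate block, with Sham libraries alone, on full lists and in the 6 libraries, and 0 to 1 without a library. With the block, 1759 and 2101 elements were called by rank, all 10 elements named for rank kept their call, there were 610 and 2781 windows, and the 3 pairs had a mean difference in median width of -233 bp (exact sign-flip over 3 pairs, p = 0.25, the smallest possible).

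The difference in peak number ranged from -12952 to 1793 without a library, turning positive without Sham MPOA 2, and the hypothalamic difference turned to -5.26 without arc. The differences in median width and covered length stayed below 0 in all alternatives run. Of the 10 named loci, none met the rule in full on full lists, with peak centres, with a −log10 p of at least 10 or with 26942 peaks. The causes were not tested. Unknown depth limits any statement that a window is empty.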

Other observations

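Region-only windows were spread over all chromosomes. MPOA-only windows made up from 0.261% of the occupied windows of chromosome X to 1.11% of those of chromosome 20, and BNST-only windows from 2.33% of chromosome 20 to 4.95% of chromosome 11. The densest 1 Mb stretches for BNST held 13 BNST-only windows each, at chr5:140000001-141000000 among 120 occupied windows and at chr14:76000001-77000000 among 48. For MPOA no 1 Mb stretch held more than 4.

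Across the 23 other regions, the share of MPOA-only and of BNST-only windows occupied had a Pearson r of -0.38 and a Spearman rho of -0.28, and of -0.41 and -0.33 without HB, over points that share pools and differ in list quality. PAG and dorDG were low in both sets, at 24.5% and 23.5% of MPOA-only and 5.18% and 14.4% of BNST-only windows.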
